A study of Homo sapiens with 12 samples.

Results

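The genes described here are APAF1, CASP9, CASP6, CASP8, CASP10, XIAP, DIABLO and CYCS, which encode the apoptosome, initiator and executioner caspases, and the proteins that hold caspases in check or free them. They were chosen by name, as every probe set (a group of short probes read as 1 value) that the platform annotation assigns to each gene, which gave 26 of the 54613 probe sets on the array other than controls. Low values were filtered out by asking that a probe set exceed the 40th percentile of its array on 3 or more of the 12, which left 23 of the 26 for testing, with at least 1 for each of the 8 genes. The measurements were made in H929, a single human myeloma cell line, on Affymetrix U133 Plus 2.0 arrays. There were 3 arrays of untreated cells, and 3 each of cells exposed for 24 hours to 1 µM tosedostat (CHR-2797, an aminopeptidase inhibitor), to 250 nM CHR-3996 (an inhibitor of histone deacetylases), or to the combination at the same doses. GEO calls the samples biological replicates, but no source says that separate cultures were grown, and the p-values therefore cover no more than the variation among the arrays of this set, which may be technical.

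In the intrinsic pathway of apoptosis, cytochrome c leaves the mitochondria and binds APAF1, which assembles into a wheel-shaped complex, the apoptosome, that activates caspase 9 and through it the executioner caspases. Caspases 8 and 10 instead start the extrinsic pathway at death receptors on the cell surface. XIAP blocks active caspases by binding them, and Smac/DIABLO, released from mitochondria together with cytochrome c, displaces XIAP from them. Caspases are made as inactive precursors, and cleavage, release and binding are not seen by an array, which reads RNA.

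Under CHR-3996 the RNA of APAF1, CASP9, CASP8 and CASP10 was higher than in untreated cells, while under tosedostat alone no main probe set of a member passed the threshold. Of the 23 probe sets tested, 8 were called higher and 1 lower under CHR-3996 (limma, Benjamini-Hochberg adjusted p under 0.05 over all 36395 probe sets tested), 1 higher and 0 lower under tosedostat, and 9 higher and 1 lower under the combination. The compound changed much of the transcriptome, and the same counts over all 36395 probe sets are the yardstick. CHR-3996 raised 29.4% and lowered 15.7% of them, tosedostat 3.23% and 0.451%, and the combination 32.0% and 14.1%. The members' share called higher, 8 of 23, was thus near the background, and the number of calls is no result about these genes. The members' median log2 fold change was 0.30 under CHR-3996, against 0.11 over all probe sets tested, 0.00 against 0.03 under tosedostat and 0.36 against 0.14 under the combination. Taking 1 probe set for each gene, the brightest, CHR-3996 gave 4 higher and 1 lower of the 8 members, and the combination 5 higher and 1 lower. Over 15587 genes counted in this way the shares came to 31.7% higher and 18.0% lower with CHR-3996, and to 34.6% and 15.9% with the combination. Under tosedostat 0 of the 8 main probe sets were called in limma, with 4.25% of genes higher and 0.545% lower, and 2 of the 23 member probe sets had an unadjusted p under 0.05, as did 5896 of the 36395. The 3 treatments were compared with the same untreated arrays, so their values stand side by side and are not independent.

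**Figure D1:**
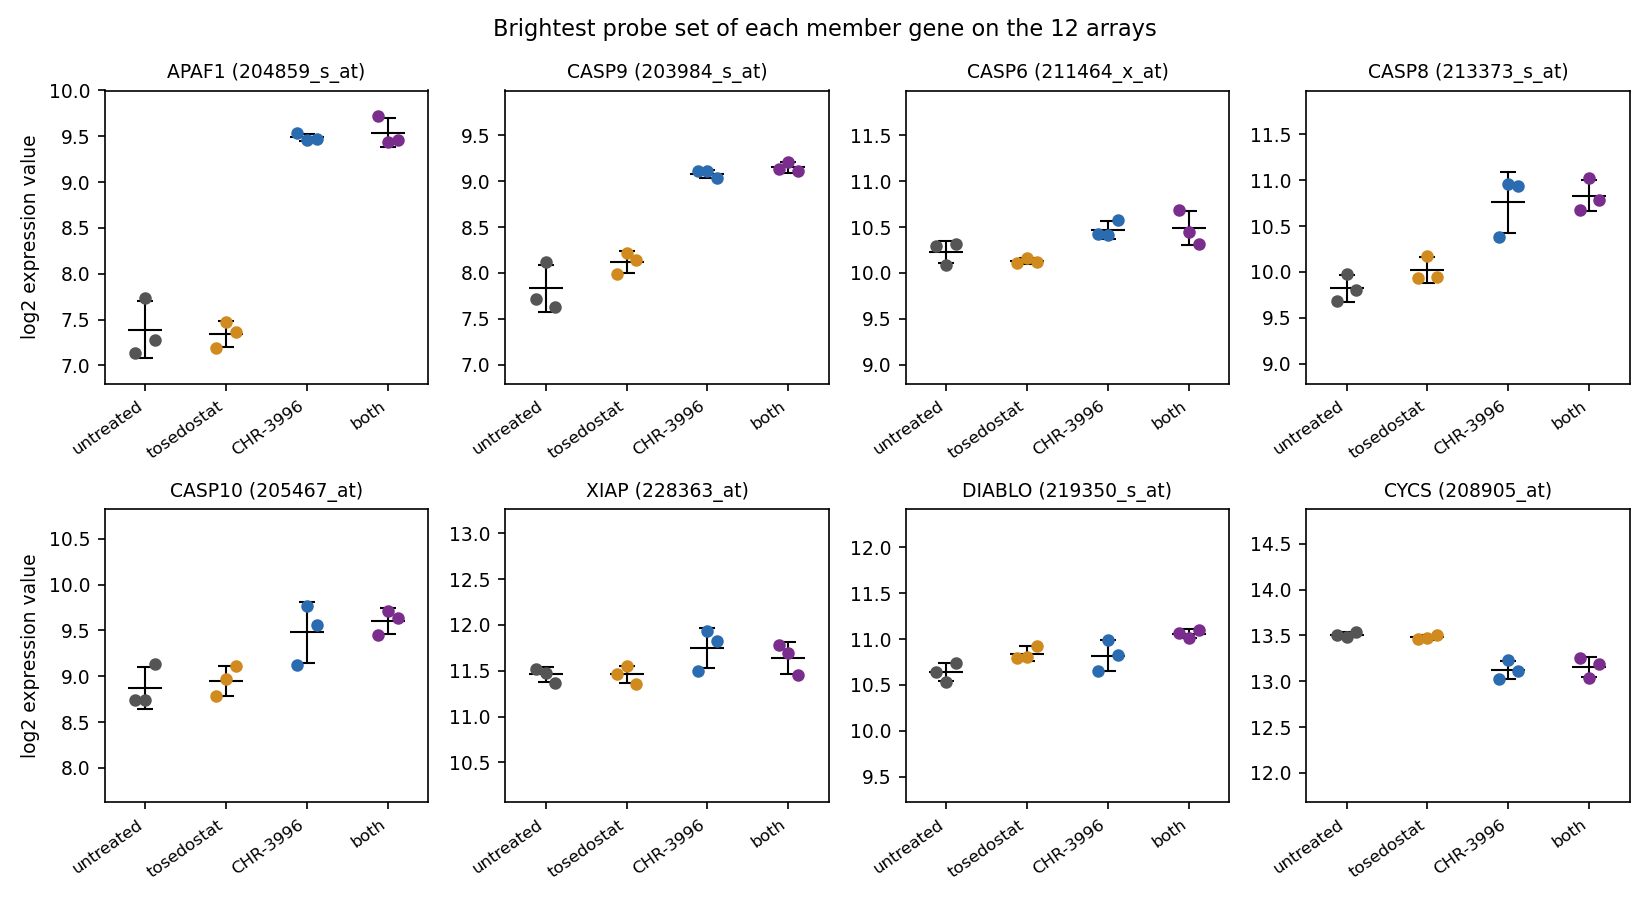
Expression of the brightest probe set of each of the 8 genes, 1 point per array, with the group mean (horizontal line) and SD (n = 3). The horizontal axis gives the 4 groups ("both" is the combination), and the vertical axis is the log2 expression value, drawn over a range of the same width in every panel and not comparable in level between genes. APAF1 rose from 7.14 to 7.74 in untreated cells to 9.46 to 9.54 under CHR-3996, and CYCS fell from about 13.5 to between 13.03 and 13.23.

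Some facts of the whole set of arrays bear on these values. The array median was 5.04 ± 0.04 in untreated cells, 5.06 ± 0.01 under tosedostat, 5.26 ± 0.02 under CHR-3996 and 5.29 ± 0.02 under the combination (log2, SD, n = 3), and setting the arrays to equal medians moves the median change of all probe sets under CHR-3996 from 0.11 to -0.11. The difference between the 3′ and 5′ probe sets of the beta-actin control, a reading of RNA integrity and amplification, was 2.14 ± 0.17 in untreated cells, 2.09 ± 0.11 under tosedostat, 1.59 ± 0.17 under CHR-3996 and 1.24 ± 0.15 under the combination (log2, SD, n = 3), and that of GAPDH lay between 0.35 and 0.45 in every group. All 8 plasma cell markers listed were above the filter, and 5 of them were lower under CHR-3996, where 18.0% of all genes were. The 8 summed to linear levels of 49272 to 51861 in untreated cells and 26163 to 37057 under CHR-3996. Under the combination 4 of the 8 were called lower, where 15.9% of all genes were, and the 8 summed to 32709 to 33680. CD38, 1 of the 8, was called higher under the combination, by 0.81 (limma adjusted p = 0.0088). Markers of T cells, myeloid cells and stromal cells summed to at most 288 on any array, and the erythroid list rose from at most 138 to between 207 and 434 with CHR-3996 or the combination, led by HBB. CD2 of the T cell list and LYZ of the myeloid list were also called higher under CHR-3996, by 0.6 and 2.03 (limma adjusted p = 0.022 and 0.00068). The part of the control and marker shifts in the results was not tested. For the array medians, refits with equal medians and with quantile normalization are given with the genes below. All the arrays are of 1 cell line, so the marker lists give RNA levels in that line and no count of other cell types. Less RNA per cell and fewer cells that express a gene cannot be told apart in bulk samples.

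APAF1, the scaffold of the apoptosome, lies on chromosome 12 (98645290 to 98735433, GRCh38.p14) and had the largest rise among the main probe sets of the 8 genes. Its main probe set, 204859_s_at, read 7.14, 7.74 and 7.28 in untreated cells and 7.19, 7.47 and 7.36 under tosedostat (log2 expression values, replicates 1 to 3). Under CHR-3996 it read 9.54, 9.46 and 9.47, and under the combination 9.72, 9.44 and 9.46. The arrays with CHR-3996, alone or combined, lay more than a log2 unit above all others, and the untreated and tosedostat arrays overlapped. The log2 fold change was 2.10 ± 0.16 (SE, limma adjusted p = 1.8e-06) under CHR-3996, a 4.29-fold rise, and 2.15 ± 0.16 (adjusted p = 1.4e-06) under the combination. Under tosedostat it was -0.05, with a 95% interval from -0.40 to 0.30 (adjusted p = 0.94). The other APAF1 probe sets were not called against untreated cells. Both were dim, with untreated means of 5.3 (211553_x_at) and 5.39 (211554_s_at) beside an array median of 5.04 in those cells. By 211554_s_at the untreated arrays read 5.71, 5.01 and 5.45 and the CHR-3996 arrays 5.26, 5.55 and 5.50, which overlap, with a log2 fold change of 0.05 and an interval from -0.42 to 0.51. Under the combination 211554_s_at gave 0.41 (adjusted p = 0.14), and it was called higher than under tosedostat, by 0.61 (adjusted p = 0.039). By 211553_x_at the change under CHR-3996 was 0.28 with an interval from -0.14 to 0.70. The mean of the 3 probe sets changed by 0.81 (adjusted p = 7.6e-05) under CHR-3996 and 0.89 (adjusted p = 3.7e-05) under the combination. The suffix _s_at marks probes that match several transcripts, and _x_at marks sets with probes that may also bind other transcripts.

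CASP9, the initiator caspase that APAF1 recruits, lies on chromosome 1 (15491401 to 15524912) and rose with the same treatments. Probe set 203984_s_at read 7.72, 8.12 and 7.63 in untreated cells, 7.99, 8.22 and 8.14 under tosedostat, 9.11, 9.11 and 9.04 under CHR-3996 and 9.13, 9.21 and 9.11 under the combination. Every array with CHR-3996 was above every array without it. CASP9 changed by 1.26 ± 0.13 log2 units (SE, limma adjusted p = 1.9e-05) under CHR-3996 and 1.32 ± 0.13 (adjusted p = 1.2e-05) under the combination. Tosedostat gave 0.29 ± 0.13 (adjusted p = 0.31), and the difference between the single compounds was 0.97 ± 0.13 (adjusted p = 0.00015). Probe set 210775_x_at moved in the same direction and by less, with 6.91, 7.01 and 7.14 in untreated cells against 7.69, 7.62 and 7.56 under CHR-3996, a log2 fold change of 0.60 ± 0.12 (adjusted p = 0.0019), and 0.55 under the combination (adjusted p = 0.0034). That smaller change was lost under quantile normalization, at 0.23 (adjusted p = 0.14) for CHR-3996 and 0.08 (adjusted p = 0.60) for the combination, and equal array medians gave the combination 0.30 (adjusted p = 0.072). CASP9 probe set 240437_at fell below the filter, at 1.48 to 4.08 over the 12 arrays, and was not tested.

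The promoters of both genes are shown because the pair shared the steepest rise. Each is 250 bases before to 50 bases after a RefSeq transcript start (GRCh38.p14), 5′ to 3′, with matches to the GC box GGGCGG, the CCAAT box CCAAT or the NRF1 core GCATGCGC on either strand in capitals. RefSeq promoters matched 7 of the 8 members by symbol, with 15 starts among them. APAF1 is at chr12:98645040-98645339 on the plus strand, and CASP9, at 1 of its 2 starts, is at chr1:15524166-15524465 on the minus strand.
APAF1: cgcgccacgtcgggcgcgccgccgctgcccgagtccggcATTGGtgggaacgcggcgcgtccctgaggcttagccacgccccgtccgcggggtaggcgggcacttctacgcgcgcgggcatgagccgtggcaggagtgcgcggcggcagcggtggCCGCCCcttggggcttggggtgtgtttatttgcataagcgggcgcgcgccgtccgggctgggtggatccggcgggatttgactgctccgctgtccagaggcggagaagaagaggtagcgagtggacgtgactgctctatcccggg
CASP9: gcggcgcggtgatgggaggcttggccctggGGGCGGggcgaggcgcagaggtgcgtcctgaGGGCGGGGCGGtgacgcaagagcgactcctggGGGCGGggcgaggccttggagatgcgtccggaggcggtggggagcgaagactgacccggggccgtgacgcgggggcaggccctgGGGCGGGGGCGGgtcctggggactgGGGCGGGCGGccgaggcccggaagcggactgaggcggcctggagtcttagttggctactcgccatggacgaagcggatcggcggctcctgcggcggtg
The CASP9 promoter held 8 GC boxes, some of them overlapping, and APAF1 had 1, with a CCAAT box on the minus strand. Of 35116 RefSeq promoters, 45.0% held a GC box, 34.6% a CCAAT box and 3.05% an NRF1 core. GC content was 71.3% for APAF1 and 76.0% for CASP9, against a median of 58.7% over all of them. These letters are a description and not a measure of binding.

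The initiator caspases of the extrinsic pathway, CASP8 and CASP10, also rose with CHR-3996. They are next to each other on chromosome 2, CASP10 from 201183141 to 201229406 and CASP8 from 201233463 to 201287711, directly after CFLAR. CASP8 by 213373_s_at read 9.68, 9.98 and 9.80 in untreated cells, 9.93, 10.17 and 9.94 under tosedostat, 10.38, 10.96 and 10.94 under CHR-3996 and 10.68, 11.02 and 10.79 under the combination. All 6 arrays with CHR-3996 lay above all 6 without it, and replicate 1 was the lowest of each of these 2 groups. CASP8 thus changed by 0.94 ± 0.17 log2 units (SE, limma adjusted p = 0.00087) under CHR-3996, 1.01 ± 0.17 (adjusted p = 0.00054) under the combination and 0.20 ± 0.17 (adjusted p = 0.65) under tosedostat. Probe set 207686_s_at gave 1.07 ± 0.22 (adjusted p = 0.002) and 1.16 (adjusted p = 0.0011) under CHR-3996 and the combination. Probe set 1553306_at was dim and scattered, from 2.81 to 4.79, and its 0.70 ± 0.39 was not called. CHR-3996 exceeded tosedostat by 0.74 ± 0.17 for CASP8 (213373_s_at, adjusted p = 0.0044).

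CASP10, a close relative of CASP8, moved by less. Probe set 205467_at read 8.74, 8.74 and 9.13 in untreated cells, 8.79, 8.97 and 9.11 under tosedostat, 9.12, 9.77 and 9.56 under CHR-3996 and 9.45, 9.71 and 9.64 under the combination. The lowest CHR-3996 array fell just under the highest untreated one, so those groups overlap, and the combination arrays lie above both groups without CHR-3996. The log2 fold change was 0.61 ± 0.18 (SE, limma adjusted p = 0.016) under CHR-3996 and 0.73 ± 0.18 (adjusted p = 0.006) under the combination. By 210955_at the values were 6.16, 6.12 and 5.66 in untreated cells and 6.64, 6.54 and 6.64 under CHR-3996, with 0.63 ± 0.15 (adjusted p = 0.0048) and, under the combination, 0.90 ± 0.15 (adjusted p = 0.00043). Under equal array medians the CHR-3996 change was no longer called by either probe set, at 0.40 (adjusted p = 0.079) and 0.41 (adjusted p = 0.053), nor by 210955_at under quantile normalization (0.30, adjusted p = 0.13). The call by 205467_at was also lost without untreated replicate 1 (0.55, adjusted p = 0.058) or 2 (0.55, adjusted p = 0.056), or without CHR-3996 replicate 2 (0.47, adjusted p = 0.063) or 3 (0.58, adjusted p = 0.051). Probe sets 211888_x_at and 210708_x_at of CASP10 were below the filter and were not tested.

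For contrast with the GC-rich pair above, the CASP8 promoter at the first of its 3 listed starts, chr2:201233213-201233512 on the plus strand, is given in the same way.
CASP8: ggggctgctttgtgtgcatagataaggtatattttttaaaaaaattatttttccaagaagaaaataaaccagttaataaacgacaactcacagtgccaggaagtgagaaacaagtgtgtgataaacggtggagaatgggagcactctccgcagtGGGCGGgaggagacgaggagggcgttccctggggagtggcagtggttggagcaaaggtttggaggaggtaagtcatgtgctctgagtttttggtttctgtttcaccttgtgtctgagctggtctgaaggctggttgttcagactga
It held 1 GC box and its GC content was 46.3%, and the other CASP8 starts were at 43.0% and 54.3%. The members called higher under CHR-3996 therefore include promoters well above and well below the median GC content.

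CFLAR, the neighbour of CASP10 and CASP8, encodes the caspase 8 homologue FLIP, which lacks protease activity and competes with caspase 8 at death receptors. It is no member and is given for its position and function. Its pattern over the treatments was another by most of its probe sets. By 217654_at it was like that of CASP8 and CASP10, at 1.08 under CHR-3996, -0.05 under tosedostat and 1.03 under the combination. Of its 13 probe sets tested, 8 were called higher under tosedostat, where 3.23% of all probe sets were. Their log2 fold changes went from 0.85 to 1.94, and the 13 together ran from -0.05 to 1.94. As readings of 1 gene, the 13 are not independent. Under CHR-3996, 3 were called higher and 0 lower, and the 13 ran from -0.59 to 1.43. Over all probe sets, 29.4% were higher and 15.7% lower with CHR-3996. Between the single compounds, 6 CFLAR probe sets were lower and 1 was higher under CHR-3996 than under tosedostat, and the combination was below tosedostat for 7 and above it for 1. Of all probe sets, 16.6% were lower and 26.3% higher under CHR-3996 than under tosedostat, and 13.7% and 28.4% under the combination. The interaction, a test of whether 1 compound acts differently with the other present, called 0 of the 13. It called 0.022% of all probe sets higher and 0.184% lower. By the brightest, 210563_x_at, the means were 10.04 ± 0.10 in untreated cells, 10.90 ± 0.22 under tosedostat, 10.55 ± 0.15 under CHR-3996 and 10.32 ± 0.22 under the combination (SD, n = 3). The change was 0.85 ± 0.15 (SE, limma adjusted p = 0.012) under tosedostat, 0.50 (adjusted p = 0.018) under CHR-3996 and 0.27 (adjusted p = 0.17) under the combination. The probe sets of CFLAR disagree, 9 of the 13 tested being of the _x_at kind, and neither call of 210563_x_at held under quantile normalization, at 0.75 (adjusted p = 0.052) under tosedostat and 0.43 (adjusted p = 0.075) under CHR-3996.

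**Figure D2:**
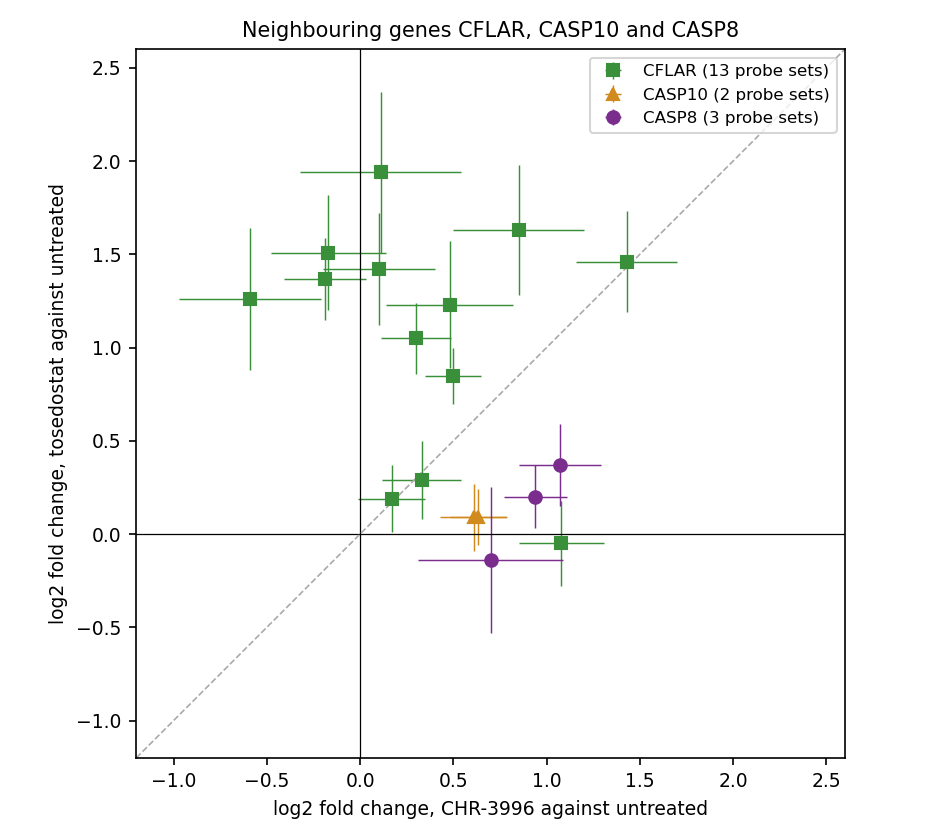
Log2 fold change under CHR-3996 (horizontal) against that under tosedostat (vertical) for every tested probe set of CFLAR, CASP10 and CASP8, with bars of 1 SE; the dashed line marks equal changes. The CASP8 and CASP10 probe sets lie to the right, below the line, and most CFLAR probe sets lie above it. Of the 13 CFLAR probe sets, 8 were called higher under tosedostat, where 3.23% of all probe sets were.

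Caspase 6, an executioner caspase that cuts nuclear lamins, gave no call against untreated cells. By 211464_x_at the untreated arrays read 10.29, 10.09 and 10.31, the tosedostat arrays 10.11, 10.16 and 10.12, the CHR-3996 arrays 10.42, 10.41 and 10.58 and the combination arrays 10.69, 10.45 and 10.32. The CHR-3996 arrays were just above the untreated ones, by 0.24 with an interval from -0.02 to 0.51 (limma adjusted p = 0.13). Probe set 209790_s_at went the other way, at -0.31 with an interval from -0.69 to 0.07. Against tosedostat, 211464_x_at was called higher under CHR-3996, by 0.34 (adjusted p = 0.04), and under the combination, by 0.36 (adjusted p = 0.032).

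XIAP, the inhibitor of active caspases, was read by 7 probe sets, and none of them was called against untreated cells under any treatment. The brightest, 228363_at, read 11.52, 11.48 and 11.37 in untreated cells, 11.46, 11.55 and 11.36 under tosedostat, 11.50, 11.93 and 11.83 under CHR-3996 and 11.78, 11.69 and 11.45 under the combination. The groups overlap. The log2 fold change under CHR-3996 was 0.30 with an interval from -0.01 to 0.60 (limma adjusted p = 0.10), and over the 7 probe sets it ran from -0.05 to 0.49. Under quantile normalization 228363_at passed the threshold (0.35, adjusted p = 0.013), as it did with a variance trend (0.30, adjusted p = 0.047) and without CHR-3996 replicate 1 (0.42, adjusted p = 0.022). Against tosedostat, CHR-3996 was higher by 243026_x_at (0.54, adjusted p = 0.0067) and by 225858_s_at (0.54, adjusted p = 0.037). XIAP has 3 pseudogenes by symbol in RefSeq, whose transcripts the probes may share.

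DIABLO, the protein that displaces XIAP, was called only under the combination among the 3 treatments. Its 1 probe set, 219350_s_at, read 10.64, 10.53 and 10.74 in untreated cells, 10.79, 10.81 and 10.93 under tosedostat, 10.65, 10.99 and 10.83 under CHR-3996 and 11.07, 11.01 and 11.10 under the combination. The combination arrays were above all others. DIABLO changed by 0.42 ± 0.11 log2 units (SE, limma adjusted p = 0.01) under the combination, 0.20 (adjusted p = 0.43) under tosedostat and 0.19 (adjusted p = 0.22) under CHR-3996. The combination did not differ from CHR-3996 by the test, at 0.24 with an interval from -0.01 to 0.49 (adjusted p = 0.50), and the interaction was 0.03 (adjusted p = 0.97). With equal array medians the combination's change was 0.18 (adjusted p = 0.20).

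CYCS, which encodes cytochrome c and lies on chromosome 7 (25118656 to 25125260), gave opposite answers by probe set. The brightest, 208905_at, read 13.50, 13.48 and 13.54 in untreated cells, 13.46, 13.47 and 13.51 under tosedostat, 13.03, 13.23 and 13.11 under CHR-3996 and 13.25, 13.04 and 13.19 under the combination. All 6 arrays with CHR-3996 were below all 6 without it. The log2 fold change was -0.39 ± 0.10 (SE, limma adjusted p = 0.0085) under CHR-3996 and -0.35 ± 0.10 (adjusted p = 0.015) under the combination, the call in the latter being lost without combination replicate 2 (-0.29, adjusted p = 0.06). By 229415_at the untreated arrays read 7.12, 6.84 and 6.74, the tosedostat arrays 7.70, 7.64 and 7.40, the CHR-3996 arrays 8.01, 7.96 and 7.74 and the combination arrays 8.43, 8.11 and 8.01. Here every treated array was above every untreated one. The rise was 0.68 ± 0.15 (adjusted p = 0.036) under tosedostat, 1.00 ± 0.15 (adjusted p = 0.00027) under CHR-3996 and 1.28 ± 0.15 (adjusted p = 4.3e-05) under the combination. The tosedostat value is the only call among the members for that compound, and it was lost without untreated replicate 2 (0.65, adjusted p = 0.094) or 3 (0.60, adjusted p = 0.13), tosedostat replicate 1 (0.62, adjusted p = 0.12) or 2 (0.65, adjusted p = 0.12), or combination replicate 2 (0.68, adjusted p = 0.051). Probe set 244546_at was not called under any treatment, at 0.28 under CHR-3996. The mean of the 3 probe sets gave 0.30 under CHR-3996, with the sign of the dimmer ones. RefSeq lists 45 CYCS pseudogenes by symbol, and how far each probe set reads them was not tested.

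The CYCS promoter is shown for its NRF1 core, a motif that 3.05% of promoters held. It is at chr7:25125211-25125510 on the minus strand.
CYCS: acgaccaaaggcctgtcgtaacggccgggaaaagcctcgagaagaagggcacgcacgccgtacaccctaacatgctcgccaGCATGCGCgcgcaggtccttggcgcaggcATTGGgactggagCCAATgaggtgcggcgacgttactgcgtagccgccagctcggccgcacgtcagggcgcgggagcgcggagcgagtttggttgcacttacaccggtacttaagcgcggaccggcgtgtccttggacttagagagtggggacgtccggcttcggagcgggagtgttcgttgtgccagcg
It held 0 GC boxes, 2 CCAAT boxes and 1 NRF1 core, with a GC content of 64.7%.

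**Figure D3:**
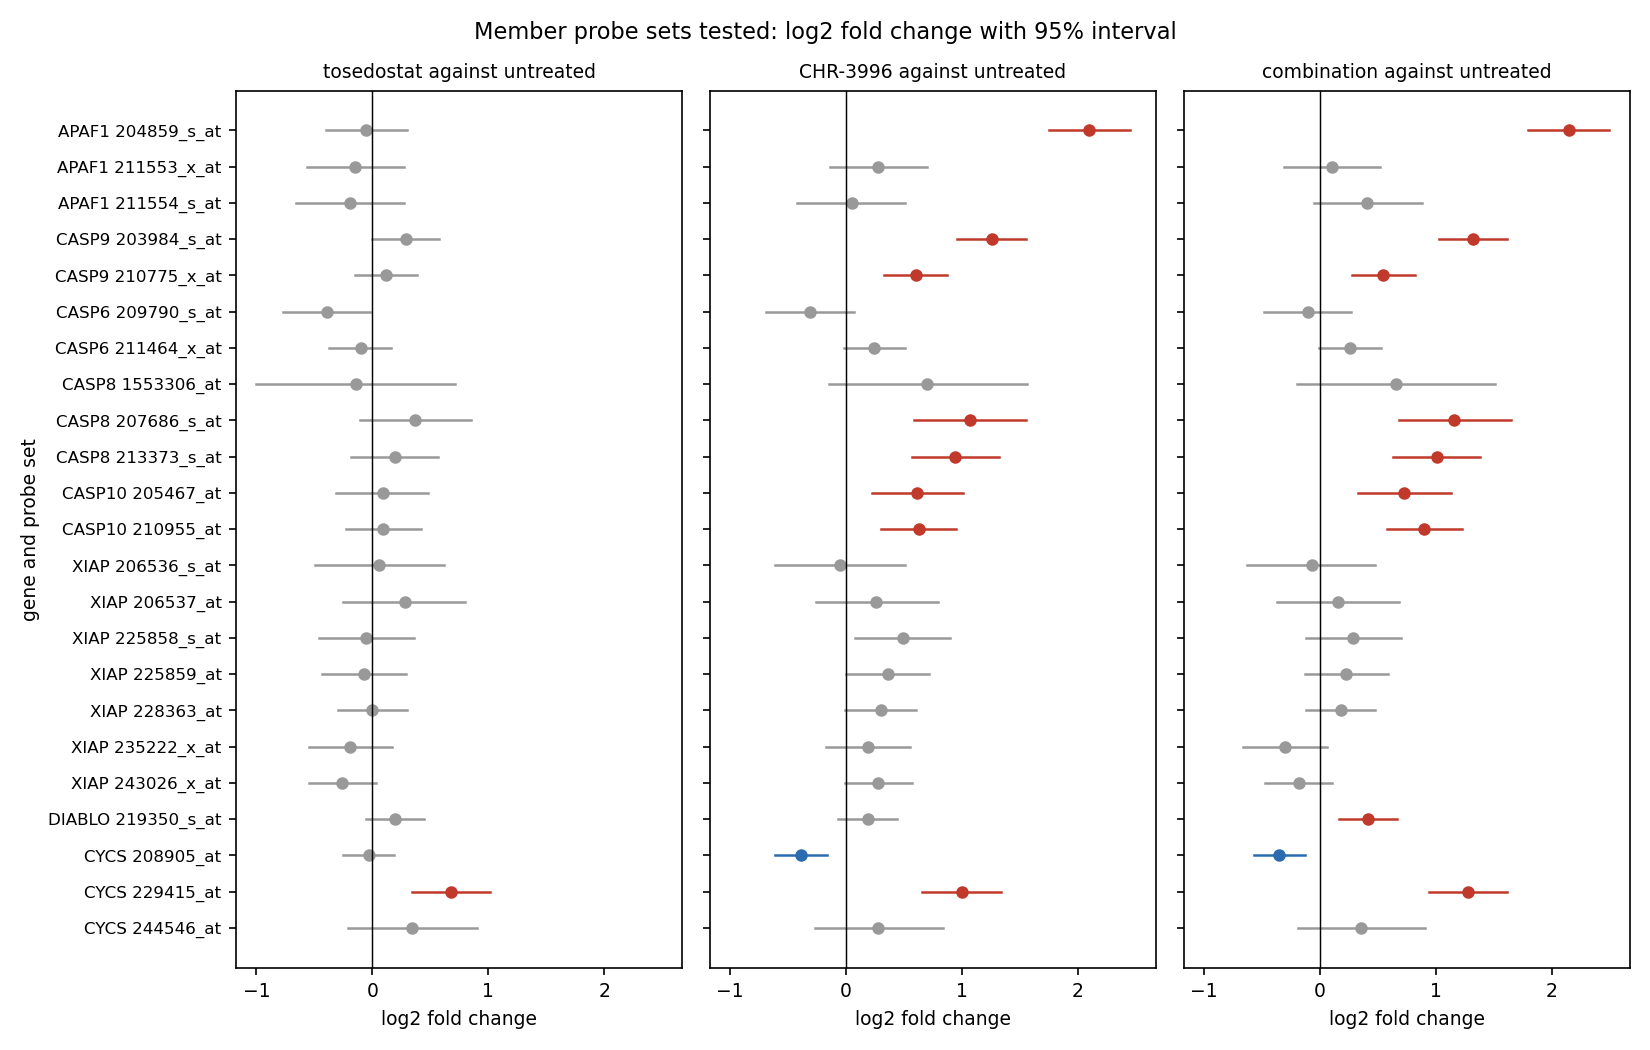
Log2 fold change (horizontal axis) of the 23 tested probe sets of the 8 genes under each treatment against untreated cells, with 95% intervals. Red marks probe sets called higher, blue those called lower, and grey those not called; the 7 XIAP probe sets are grey throughout, and CYCS has both colours under CHR-3996 and the combination.

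Adding tosedostat to CHR-3996 changed no member past the threshold. Against CHR-3996 alone, 0 of 23 probe sets were called for the combination in limma, with 2 at an unadjusted p under 0.05. Over all probe sets, 0.0522% were called higher and 0.011% lower, and 3857 had an unadjusted p under 0.05. The 2 members at that level were XIAP probe sets, 235222_x_at at -0.49 with an interval from -0.85 to -0.13 and 243026_x_at at -0.46 with an interval from -0.75 to -0.17 (adjusted p = 0.34 and 0.27). For APAF1 by 204859_s_at the difference was 0.05 with an interval from -0.30 to 0.40, and for CASP9 by 203984_s_at it was 0.06 with an interval from -0.23 to 0.36. The interaction, which asks whether 1 compound acts differently with the other present, called 0 of 23, with 1 at an unadjusted p under 0.05 (CASP6 by 209790_s_at, 0.60 with an interval from 0.07 to 1.13). It called 0.022% of all probe sets higher and 0.184% lower, and 3712 had an unadjusted p under 0.05.

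Set against tosedostat, the arrays with CHR-3996 differed more. The combination was higher for 10 and lower for 1 of the 23 probe sets, where 28.4% and 13.7% of all probe sets were called, and CHR-3996 alone was higher for 10 and lower for 1, where 26.3% and 16.6% were called. APAF1 by 204859_s_at was higher by 2.15 ± 0.16 (SE, limma adjusted p = 2.4e-06) under CHR-3996 than under tosedostat. The probe set lower in both was CYCS 208905_at, by -0.36 under CHR-3996 (adjusted p = 0.014) and -0.32 under the combination (adjusted p = 0.025). With the replicate number as a block, 3 more probe sets were called higher under CHR-3996 than under tosedostat, CASP8 1553306_at (0.85, adjusted p = 0.02), XIAP 225859_at (0.42, adjusted p = 0.028) and CYCS 229415_at (0.32, adjusted p = 0.02), and 1 more under the combination, CASP8 1553306_at (0.80, adjusted p = 0.025).

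Other genes of the caspase pathway were taken from 6 lists, of which 31 genes were measured, 1 was below the filter and 5 were not analysed here. Under CHR-3996, 8 of the 31 rose and 12 fell, under the combination 9 and 12, and under tosedostat 2 and 0. Over all 15587 genes, as given above, 31.7% rose and 18.0% fell with CHR-3996, 34.6% and 15.9% with the combination, and 4.25% and 0.545% with tosedostat. The lists are small, their counts are to be read against these shares, and nothing is drawn from them about a list as a whole. The 6 genes listed as apoptosome regulators included 5 lower and 0 higher under CHR-3996, where 18.0% of all genes were lower. Under the combination 6 were lower, beside 15.9% of all genes. The list median was -0.59 under CHR-3996, against 0.11 over all genes by their brightest probe set. AVEN, which binds APAF1 and inhibits its assembly, went from 10.08 ± 0.03 in untreated cells to 8.09 ± 0.26 under CHR-3996 (SD, n = 3), a change of -1.99 ± 0.15 (SE, limma adjusted p = 2.1e-06). CSE1L, a nuclear export factor that promotes apoptosome assembly, fell by 1.63 on the log2 scale (adjusted p = 2.4e-05), and ANP32A, which also promotes it, fell by 0.63 (adjusted p = 0.0029). AVEN, an inhibitor of the assembly, and CSE1L and ANP32A, which promote it, thus all fell. These 3 were picked by the size of their change and give no balance of inhibitors and promoters on the list. To complete it, PTMA changed by -0.55 (adjusted p = 0.0017) and NOL3 by -0.47 (adjusted p = 0.0089) under CHR-3996. APIP was not called there (-0.34, adjusted p = 0.052) and was lower under the combination (-0.36, adjusted p = 0.042).

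Of 7 other caspases listed, 1 was below the filter and 2 were not analysed here, so this list is incomplete. Among the 4 measured, 2 rose under CHR-3996 and the combination and 0 under tosedostat, where 31.7%, 34.6% and 4.25% of all genes rose. By its brightest probe set CASP1, the protease that matures interleukin 1 beta, rose by 1.38 ± 0.16 (SE, limma adjusted p = 4.3e-05) under CHR-3996. Under the combination it rose by 1.49 (adjusted p = 2.5e-05). All 5 of its probe sets tested were called higher, from 1.26 to 4.53 under CHR-3996 and from 1.35 to 4.17 under the combination. CASP4, which senses bacterial lipopolysaccharide, gave 0.86 (adjusted p = 0.026), a call lost under both other scalings, at 0.58 (adjusted p = 0.082) with quantile normalization and 0.64 (adjusted p = 0.079) with equal array medians. Neither belongs to the apoptosome cascade.

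Of 7 other inhibitor of apoptosis proteins listed, 2 were not analysed here, so the list is incomplete. Of the 5 measured, 2 rose and 1 fell under CHR-3996 and likewise under the combination, where 31.7% and 34.6% of all genes rose and 18.0% and 15.9% fell. BIRC5 (survivin), which acts in cell division as well as in apoptosis, went from 10.96 ± 0.19 to 8.72 ± 0.75 under CHR-3996 (SD, n = 3), a change of -2.24 ± 0.39 (SE, limma adjusted p = 0.00068). BIRC2, a ubiquitin ligase of death receptor complexes, rose by 0.50 (adjusted p = 0.004), and NAIP, a sensor of the inflammasome, by 0.86 (adjusted p = 0.0025). The NAIP call was lost under quantile normalization (0.51, adjusted p = 0.051) and that of BIRC2 under equal array medians (0.28, adjusted p = 0.058). Only 1 of the 3 NAIP probe sets tested was called higher. The 3 ran from -0.0 to 0.86 under CHR-3996 and from -0.27 to 0.67 under the combination. The IAP antagonists and mitochondrial effectors had 2 of 5 lower under CHR-3996, beside 18.0% of all genes. They were XAF1, an antagonist of XIAP, at -1.36 ± 0.16 (adjusted p = 3.4e-05) by its brightest probe set, and ENDOG, a mitochondrial nuclease, at -0.97 (adjusted p = 0.00055). The other XAF1 probe sets were not called, at 0.70 ± 0.73 and 0.19 ± 0.26. SEPTIN4, of which 1 isoform binds XIAP, is named after its values were seen, because its probe sets disagree. Its brightest, 233006_at, was not called under CHR-3996 (-0.20, adjusted p = 0.32), while 210657_s_at rose by 2.51 ± 0.33 (adjusted p = 8.6e-05) under CHR-3996 and 3.12 (adjusted p = 1.7e-05) under the combination. Under the combination AIFM1, a mitochondrial flavoprotein, was called at 0.35 (adjusted p = 0.045), and with equal array medians it was 0.10 (adjusted p = 0.53).

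Of 6 caspase adaptors and regulators listed, 1 was not analysed here. The 5 measured had 3 higher and 1 lower under CHR-3996, beside 31.7% and 18.0% of all genes. Under tosedostat 2 were higher and 0 lower, beside 4.25% and 0.545%. TRADD, the adaptor of the TNF receptor, was higher under all 3 treatments, by 0.81 ± 0.13 under tosedostat (SE, limma adjusted p = 0.0068), 0.95 ± 0.13 under CHR-3996 (adjusted p = 0.0001) and 1.03 ± 0.13 under the combination (adjusted p = 5.8e-05). PIDD1, the scaffold of the caspase 2 complex, was lower by -0.72 under CHR-3996 (adjusted p = 0.0011), and CRADD, its partner, gave 0.37 (adjusted p = 0.048), which both other scalings brought to 0.15 (adjusted p = 0.25 with quantile normalization and 0.39 with equal medians). Of 6 genes listed for the dismantling of cells by caspases, 1 rose and 3 fell under CHR-3996, beside 31.7% and 18.0% of all genes. LMNA, a nuclear lamin, rose by 0.72 (adjusted p = 0.0014), and DFFB, the caspase-activated DNase, and ACIN1, a factor of chromatin condensation, changed by -1.19 (adjusted p = 0.00015) and -1.37 (adjusted p = 4.5e-05).

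**Figure D4:**
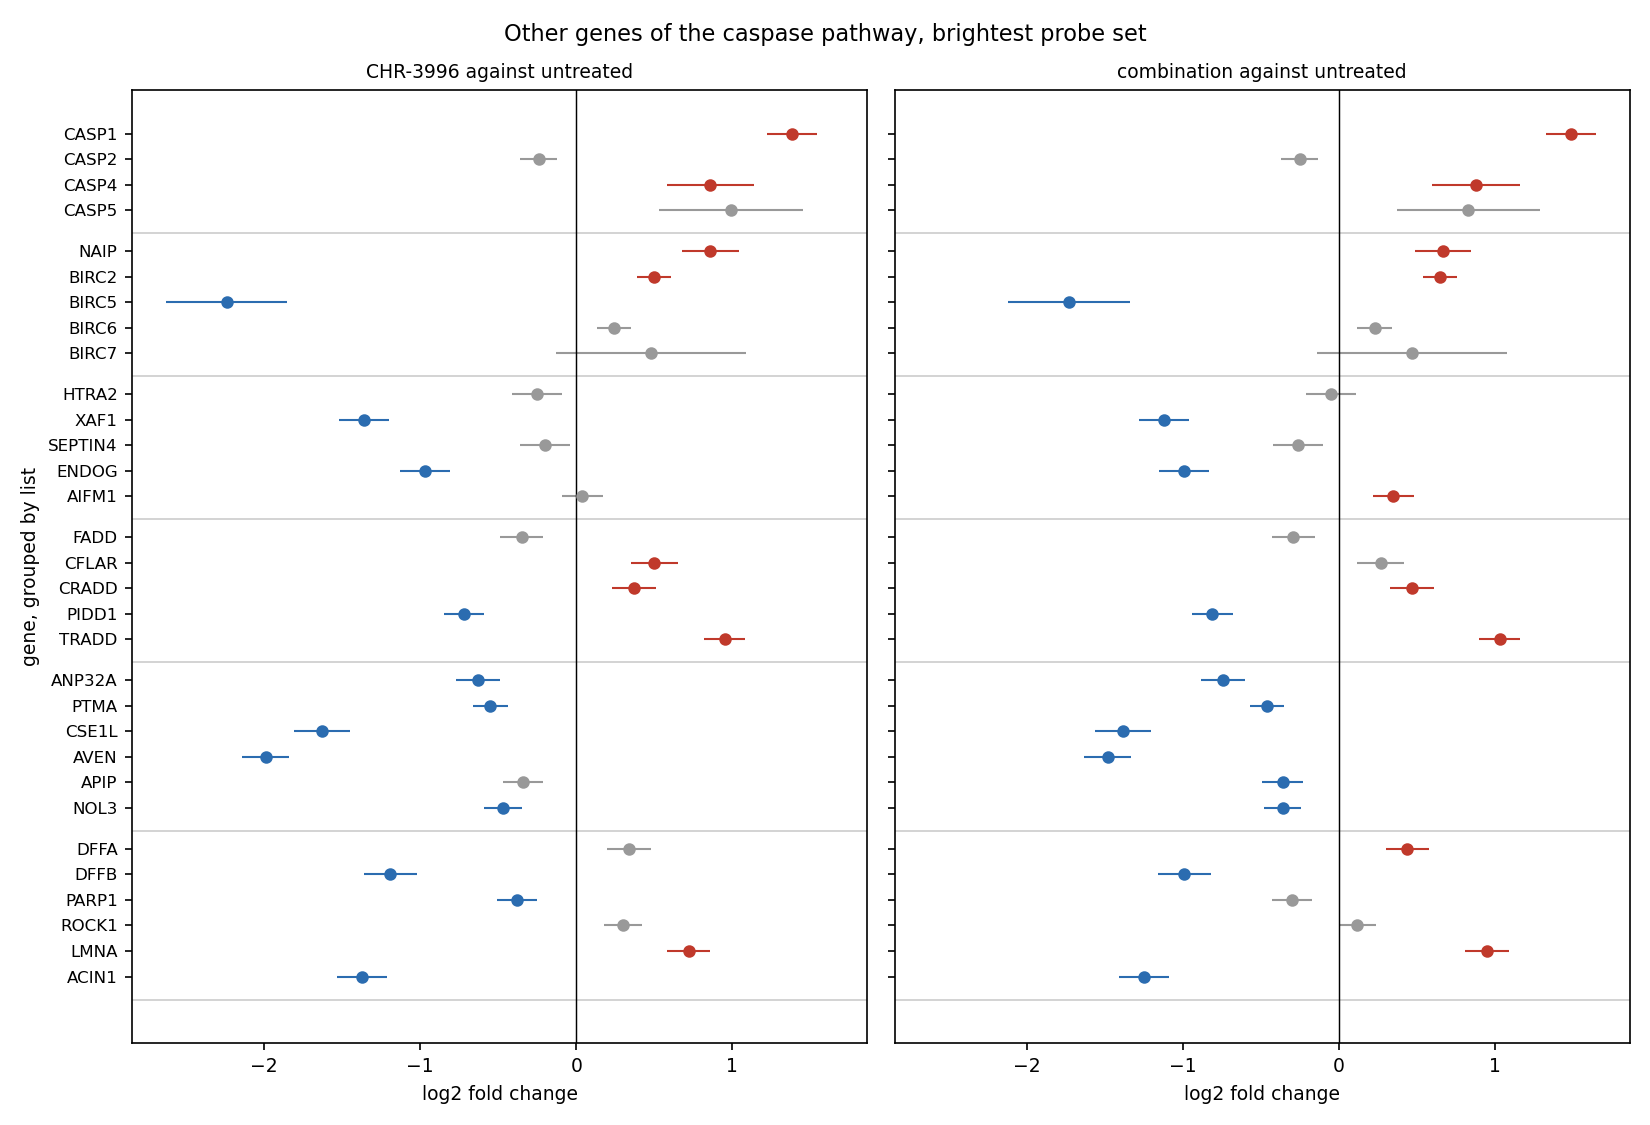
Log2 fold change (horizontal axis, bars of 1 SE) of the 31 listed pathway genes measured, by their brightest probe set, under CHR-3996 and under the combination. Grey lines divide the 6 lists, and red, blue and grey mark genes called higher, lower and not called. From the top come other caspases, other inhibitor of apoptosis proteins, and IAP antagonists and mitochondrial effectors. Below them are adaptors and regulators, apoptosome regulators, and genes of cell dismantling.

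The genes whose values over the 12 arrays were most like those of each member called under a treatment were found among 15587 genes, by the root mean square difference of values centred on their mean. APAF1 was closest to ZSWIM6, at 0.092 log2 units, then FAM117B at 0.119 and CITED2 at 0.125, where APAF1 itself varied by 1.086 about its mean. ZSWIM6 changed by 2.14 under CHR-3996 and -0.05 under tosedostat, where APAF1 gave 2.10 and -0.05. CASP9 was closest to SLX4IP (0.093), CREG1 (0.098) and DET1 (0.098), and CASP8 to RFX7 (0.099), DEDD (0.103) and TMX4 (0.107). DEDD encodes a death effector domain protein, the kind of domain through which caspase 8 is recruited. CASP10 was closest to C3orf38 (0.10), COMMD8 (0.103) and THEM4 (0.107). DIABLO was closest to DENR (0.058), WHR1 (0.059) and TM2D2 (0.060), and CYCS by 208905_at to KARS1 (0.039), PGAM1 (0.046) and RBM17 (0.050). About their own means CASP9 varied by 0.594, CASP8 by 0.476, CASP10 by 0.368, CYCS by 0.189 and DIABLO by 0.174. Each difference is to be read against these, and the small ones of DIABLO and CYCS are no closer matches than that of APAF1.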

How the data were processed

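RNA from 12 samples of H929 cells was amplified in 2 cycles, biotin-labelled and hybridised to Affymetrix U133 Plus 2.0 arrays by the authors, who normalised the arrays in dChip. Which version, normalisation and probe summary of dChip they used is not given in the sources used here. In the files, the deposited values are log2 expression values, 1 per probe set and array, the log2 scale being read from the values. No further normalisation was applied, and the number of arrays limits the precision. Control probe sets (62) were left out, and 36395 of 54613 probe sets were kept, those that exceeded the 40th percentile of their array on 3 arrays or more. The model was fitted with limma 3.58.1 (R 4.3.3) over all 12 arrays with 1 term per group, with Benjamini-Hochberg adjustment of p over all kept probe sets within each of 7 contrasts, at 0.05. The test was checked on simulated data in which arrays were drawn independently and few probe sets changed. That check does not cover arrays linked by replicate number or changes as broad as those under CHR-3996. Probe sets were named from the platform annotation, with older symbols brought up to date by gene identifier in RefSeq.

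The members and lists were chosen with earlier results of these data known. The genes named by rule are the 8 members, by every probe set, and of each list up to 3 called genes per treatment with the largest change. The rule also names CFLAR, with 1 other gene not analysed here, and the 3 genes most like each called member. PTMA, NOL3, APIP and SEPTIN4 were named after their values were seen. A gene was represented by its brightest kept probe set with 1 symbol. Alternatives were quantile normalisation, equal array medians, the filter dropped or raised to the 60th percentile, a replicate block, a variance trend with robust estimation, the compared arrays alone, the mean of a gene's probe sets, the fold (2) and difference (100) criteria of the methods, and each array left out. The labels number the replicates alike in all groups, and what a shared number stands for is not said. As a check, the deviation of each array from its group mean was correlated with that of the array of the same number in another group. All 3 correlations exceeded 0.1 between tosedostat and each of the other groups and between CHR-3996 and the combination. Untreated cells gave at least 1 lower correlation with both groups that received CHR-3996. Promoter sequences and coordinates are those of RefSeq on GRCh38.p14, and the probes themselves were not placed on the genome. Python 3.11.15 and matplotlib 3.10.9 served for the figures.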

Additional observations from a re-analysis of the deposited data

How the results depend on the processing

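The calls of APAF1 by 204859_s_at and of CASP9 by 203984_s_at under CHR-3996 and the combination held under every alternative run. The mean of the gene's probe sets, which takes in the dim ones, brought APAF1 from 2.10 to 0.81 and from 2.15 to 0.89. The counts of member probe sets moved with the scaling, and so did the arrays as a whole. The median change of all probe sets under CHR-3996 was 0.11 as deposited, -0.10 with quantile normalisation and -0.11 with equal medians. Shares over all probe sets under each of these settings are not given here. The counts that follow thus describe the settings and are no result about these genes. Lower calls under CHR-3996 went from 1 to 2 with quantile normalisation and with equal medians, and under the combination from 1 to 4 and 3. Higher calls against tosedostat went from 10 to 5 and 4 for the combination, and from 10 to 3 with equal medians for CHR-3996. The single higher call under tosedostat went to 0 with quantile normalisation, without a filter and on the compared arrays alone. The lower call of the combination against tosedostat went to 0 without a filter and on the compared arrays alone, as did that of CHR-3996 against tosedostat on the compared arrays alone. The fold and difference criteria of the methods left 2 higher and 0 lower under CHR-3996, 0 higher under tosedostat, 5 higher and 0 lower under the combination, 2 higher and 0 lower for the combination against tosedostat, and 1 higher and 0 lower for CHR-3996 against tosedostat. The cause was not tested, apart from the arrays and criteria these settings take away. With each array left out in turn, higher calls ranged from 6 to 10 for the combination against tosedostat (6 without tosedostat replicate 1) and from 6 to 12 for CHR-3996 against tosedostat (6 without tosedostat replicate 1 or CHR-3996 replicate 2 or 3). The higher call under tosedostat ranged from 0 to 1. The lower call of the combination ranged from 0 to 1 against untreated cells (0 without combination replicate 2) and from 0 to 1 against tosedostat (0 without any 1 tosedostat array or combination replicate 2 or 3).

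Signs turned for small changes. The mean of a gene's probe sets gave -0.03 for CASP6 under CHR-3996, -0.03 for XIAP under tosedostat, and 0.30, 0.33 and 0.43 for CYCS under CHR-3996, tosedostat and the combination, the last with an adjusted p of 0.03 in limma. Quantile normalisation gave -0.002 for CASP10 and -0.04 for XIAP under tosedostat. Equal medians gave -0.01 for XIAP under tosedostat, -0.07 for XIAP under the combination and -0.03 for DIABLO under CHR-3996. None of these was called in the values reported except CYCS under CHR-3996 and the combination. Leaving out arrays, APAF1 under tosedostat ranged from -0.17 to 0.13 and XIAP under tosedostat from -0.05 to 0.05.

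With the replicate number as a block, CHR-3996 gave 10 higher calls among the member probe sets and 1 lower call, tosedostat 1 and 0, and the combination 10 and 1. The shares over all probe sets with the block are not given here, so these counts are no result about the members. Against untreated cells the block added CASP8 1553306_at (0.70, adjusted p = 0.041) and XIAP 225858_s_at (0.49, adjusted p = 0.017) under CHR-3996. It added CYCS 244546_at (0.36, adjusted p = 0.039) under the combination, and ended no member's call. In all 6 pairs of groups each of the 3 arrays correlated best with the array of its own number, a hint from the data and not from the design. The block took no count of member calls past 1.5 times, and of the named genes it ended the call of AIFM1 under the combination (0.35, adjusted p = 0.053).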
